A study of Mus musculus with 9 samples.

Results

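Chemokines are small secreted proteins that direct the migration of leukocytes, and they act through receptors of the G protein-coupled family. The genes described here are the 63 protein-coding chemokine and chemokine receptor genes, of 33293 genes in the table, whose symbols are Ccl, Cxcl, Ccr, Cxcr or Ackr followed by a digit, or Cx3cl1, Cx3cr1, Xcl1 and Xcr1. Of these, 40 encode ligands and 23 encode receptors. The study sequenced aorta RNA in 9 libraries; all mice were male, were 7 to 8 weeks old and ate a normal diet. The WT group (n = 5) was C57BL/6J, and the Apoe_KO group (n = 4) lacked Apoe, the gene of apolipoprotein E. The labels give neither the knockout allele nor the strain background of the Apoe_KO mice, and they do not say whether each library is a separate animal, so the p-values measure only the spread between these libraries. Levels are in FPKM, which divides reads by exon length and by library depth, so that levels of different genes can be set side by side.

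The ligands fall into CC, CXC, CX3C and XC types by the spacing of their first cysteines. Homeostatic chemokines such as CXCL12, CXCL13 and CCL21 place leukocytes in tissues and lymphoid organs, whereas inflammatory ones are induced by cytokines and NF-kappaB. In the arterial wall, CCL2 acting on CCR2 is best known for drawing in monocytes, and CX3CL1 acts on monocytes and T cells through CX3CR1. Atypical receptors of the ACKR family bind chemokines without G protein signalling and act as scavengers or transporters.

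Apoe was at 513 to 643 FPKM in WT libraries and at 5.64 to 6.55 FPKM in Apoe_KO libraries, so that each library followed its label. Library depth ran from 17.0 to 19.8 M reads, at which a single read on 2 kb of exon stands for 0.0253 to 0.0294 FPKM. Smooth muscle markers summed to between 4644 and 6007 FPKM in all libraries, and fibroblast and adipocyte markers were also abundant. WT 2 and Apoe_KO 4 stood apart by lymphocyte transcripts: B and plasma cell markers summed to 484 and 416 FPKM in them, against 15.4 to 40.6 FPKM in the other 7 libraries. In bulk tissue, fewer cells of a type and less RNA per cell cannot be told apart.

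Of the 63 genes, 26 reached at least 1 FPKM in at least 4 libraries and were tested, and 37 did not. Only 7 had a mean of at least 10 FPKM over all libraries, 11 lay below 0.1 FPKM and 2 were listed at 0 throughout. Genotypes were compared on log2(FPKM + 1) with limma across all 13383 genes that passed the same filter, with Benjamini-Hochberg adjusted p under 0.05 as a call. In Apoe_KO aorta 2 chemokine genes, Ccl9 and Ccl6, were called higher and 0 members lower. That is 7.69% of the tested members, and 7.35% of all tested genes were called (3.43% higher and 3.92% lower). The unadjusted p was under 0.05 for 8 members, 4 higher and 4 lower, or 30.8%, against 24.6% of all genes (8.59% higher and 16.0% lower). The share of higher calls over all genes depended on scaling, with 459 higher and 524 lower as deposited and 630 higher and 269 lower after median centring. The median log2 fold change was 0.012 over the tested members and -0.069 over all tested genes, and the median absolute log2 fold change was 0.39 over the members and 0.14 over all genes. Of the 26 members, 13 had positive and 13 negative values, with a median of 0.26 over the 18 ligands and -0.20 over the 8 receptors.

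**Figure D1:**
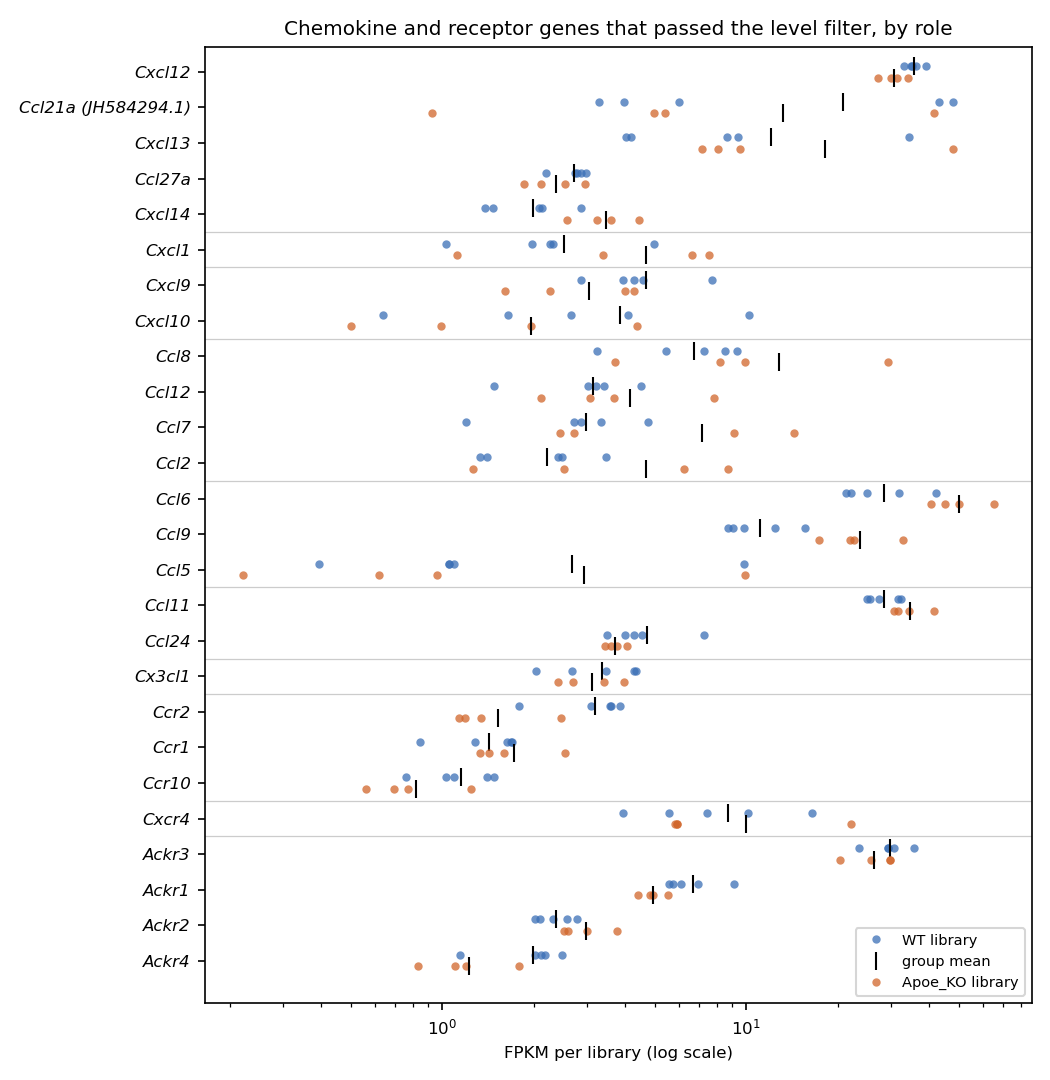
FPKM of the 26 tested genes in each library (log axis), by role, with WT libraries in blue, Apoe_KO libraries in orange and group means as black ticks. Ccl9 (17.4 to 32.7 FPKM in Apoe_KO, 8.72 to 15.7 in WT) and Ackr1 (4.41 to 5.52 against 5.58 to 9.11) are the rows whose groups do not overlap.

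The MIP-type ligands, CC chemokines related to the macrophage inflammatory proteins, held both calls. Ccl9 (ENSMUSG00000019122, GRCm38 chromosome 11, 83572919 to 83578636, minus strand) encodes a CCR1 ligand made by macrophages and other myeloid cells of mice. In WT libraries 1 to 5 it was at 8.72, 9.81, 9.03, 12.4 and 15.7 FPKM, and in Apoe_KO libraries 1 to 4 at 17.4, 22.0, 22.5 and 32.7 FPKM. All Apoe_KO libraries lay above all WT libraries, with WT 5 nearest to them and Apoe_KO 4 far above the rest. The means were 11.1 ± 2.92 (SD, n = 5) and 23.7 ± 6.47 FPKM (SD, n = 4), with a log2 fold change of 1.02 (SE 0.20) and a limma adjusted p of 0.0185. Groups that did not overlap were found for 2 of the 26 tested members, Ccl9 and Ackr1, and for 12.4% of all tested genes (4.90% higher and 7.48% lower).

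Ccl6 (ENSMUSG00000018927, chromosome 11, 83587882 to 83593087, minus strand), the neighbouring gene and a further CCR1 ligand of macrophages, was among the most abundant chemokine transcripts, below Cxcl12 in WT (means of 28.4 and 35.6 FPKM) and above it in Apoe_KO (50.2 and 30.6 FPKM). Its values were 22.1, 25.0, 21.2, 31.8 and 42.1 FPKM in WT 1 to 5 and 40.4, 50.1, 45 and 65.5 FPKM in Apoe_KO 1 to 4. The groups overlapped through WT 5, which lay above Apoe_KO 1. The means of 28.4 ± 8.70 (SD, n = 5) and 50.2 ± 10.9 FPKM (SD, n = 4) gave a log2 fold change of 0.82 (SE 0.21) and a limma adjusted p of 0.0457. Ccl6 overlaps E230016K23Rik on the opposite strand, a gene at 0.0189 to 0.348 FPKM, and whether reads were counted by strand is unknown here; this also holds for the overlapping genes named below.

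The Ccl9 call held in 8 of 9 fits that left out a library. Without Apoe_KO 3 the log2 fold change was as large (1.03) with a limma adjusted p of 0.0577, and without WT 2 and Apoe_KO 4 together it was 0.82 (0.0692). Ccl6 was called in 1 of the 9 fits, that without WT 5 (0.0166), and in the others had log2 fold changes of 0.69 to 0.92 with adjusted p of 0.0576 to 0.0980. Without WT 2 and Apoe_KO 4, 0 members were called in either direction (Ccl6 adjusted p = 0.16), against 2.90% of all genes in that fit.

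Ccl6 and Ccl9 each had their lowest values in WT 1 to 3 and their highest in Apoe_KO 4. The ratio of their FPKM was 2.35 to 2.69 in WT and 2.0 to 2.32 in Apoe_KO libraries, and it was lower in each Apoe_KO library than in any WT library. This ratio was chosen after the values were seen and was not tested. Their sequences around the start site also share a stretch, which in Ccl9 lies mostly after the start. The 250 bases before each start in RefSeq (GRCm38.p6, minus strand, chr11:83593088-83593337 for Ccl6 and chr11:83578637-83578886 for Ccl9) are shown because the 2 called genes are neighbours and moved together, with capitals for bases that are identical in the local alignment of the 2 windows:
Ccl6: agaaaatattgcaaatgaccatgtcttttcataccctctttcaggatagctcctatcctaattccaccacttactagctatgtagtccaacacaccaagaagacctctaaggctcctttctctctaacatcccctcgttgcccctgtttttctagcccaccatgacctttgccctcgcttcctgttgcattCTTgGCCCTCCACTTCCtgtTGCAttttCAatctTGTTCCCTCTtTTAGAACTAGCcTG
Ccl9: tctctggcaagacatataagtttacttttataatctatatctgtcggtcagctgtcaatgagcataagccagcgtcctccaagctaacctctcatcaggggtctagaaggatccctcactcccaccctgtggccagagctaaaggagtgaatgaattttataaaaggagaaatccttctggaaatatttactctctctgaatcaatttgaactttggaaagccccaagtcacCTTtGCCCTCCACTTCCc
The alignment, which also took in 50 bases after each start, began 59 bases before the start of Ccl6 and 18 bases before that of Ccl9. It ran into the transcribed part, with 58 of 67 aligned bases identical (86.6%). Bases opposite its 2 gaps were left out of the 67. The aligned stretch holds GGAAGTG, the core bound by ETS-family factors, on the opposite strand in both genes. It lies 49 bases before the start of Ccl6 and 8 before that of Ccl9. That motif was in 8.55% of all 32851 promoter windows and in 7 of 53 windows of members. It was 1 of 5 motifs sought on both strands, chosen after the windows were seen. The others were the NF-kappaB consensus, described below, the AP-1 site TGANTCA (6.75% of all windows, 6 of 53), the TATA box TATAAA (12.4%, 15 of 53) and the interferon-stimulated response element (2.98%, 3 of 53). Ccl9 also matched AP-1, 53 bases before its start, and the TATA box, whereas Ccl6 matched neither. The TATA box matches in Ccl9 began 92 bases before its start on its own strand, and 94 and 224 bases before it on the opposite strand. A match only describes the letters of the window.

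**Figure D2:**
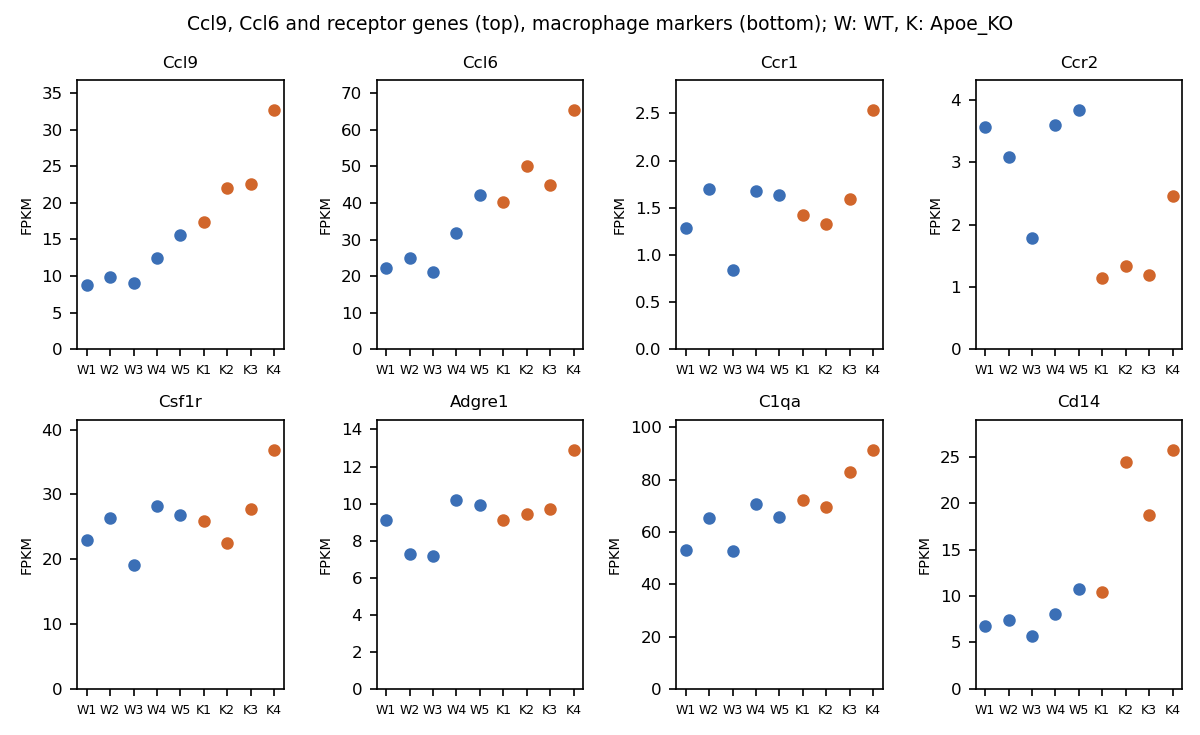
FPKM per library (W, WT; K, Apoe_KO; axes start at 0) of Ccl9, Ccl6 and the receptor genes Ccr1 and Ccr2 in the upper row, and of the macrophage markers Csf1r, Adgre1, C1qa and Cd14 in the lower row. Ccl9 and Ccl6 are higher in Apoe_KO, Ccr2 is at 1.14 to 2.45 FPKM in Apoe_KO against 1.79 to 3.84 in WT, and Apoe_KO 4 is the highest library for Ccl9, Ccl6, Ccr1 and all 4 macrophage markers.

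Macrophage markers are given beside these genes, since macrophages express them. The 10 markers summed to 360 to 615 FPKM in WT and 454 to 943 FPKM in Apoe_KO, and 1 of the 10, Cd14, was called higher (log2 fold change 1.20, limma adjusted p = 0.0238). The complement genes C1qa, C1qb and C1qc had log2 fold changes of 0.36, 0.47 and 0.30 (limma adjusted p of 0.0925, 0.0532 and 0.132). C1qb was at 52.7 to 69.8 FPKM in WT and 72.4 to 103.6 FPKM in Apoe_KO, so its groups did not overlap. Csf1r, the receptor of macrophage colony-stimulating factor, was at 19.1 to 28.2 FPKM in WT libraries and 22.5 to 36.9 in Apoe_KO (0.18, adjusted p = 0.493), and Adgre1, which encodes F4/80, at 7.16 to 10.2 and 9.12 to 12.9 FPKM (0.21, adjusted p = 0.344). Lyz2, Mrc1, Cd68 and Fcgr1 had log2 fold changes of 0.18, 0.12, 0.06 and 0.045, with limma adjusted p of 0.621 to 0.903. Lyz2 made up the largest part of the sum in every library and was highest in WT 2 and Apoe_KO 4 (383 and 574 FPKM). The median log2 fold change of the 10 markers was 0.20. The part of these cells in the Ccl6 and Ccl9 difference was not tested. Among handling and heat-inducible genes, given below, 3 were also called higher in Apoe_KO, and their part in this difference was not tested either.

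The remaining MIP-type ligands were not called. Ccl5, a T cell and NK cell product, was at 0.392 to 1.09 FPKM in 4 WT libraries and 9.80 in WT 2, and at 0.221 to 0.960 in 3 Apoe_KO libraries and 9.93 in Apoe_KO 4 (log2 fold change -0.059, SE 0.74, limma adjusted p = 0.97). Ccl3 and Ccl4, products of activated macrophages, were under 1 FPKM in every library, at 0 to 0.793 and 0 to 0.792 FPKM, and were not tested. Ccl3 and Ccl4 lie beside Ccl6 on chromosome 11.

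Ligands listed as monocyte-attracting, Ccl2, Ccl7, Ccl8 and Ccl12, had higher means in Apoe_KO but none was called. Ccl2, the main monocyte chemoattractant, was at 2.40, 2.48, 1.40, 1.33 and 3.45 FPKM in WT 1 to 5 and at 1.26, 8.71, 2.52 and 6.22 FPKM in Apoe_KO 1 to 4. Apoe_KO 2 and Apoe_KO 4 were above every WT library, and Apoe_KO 1 was below every WT library. The log2 fold change was 0.64 (SE 0.41, limma adjusted p = 0.367), and Ccl2 overlaps Gm17268 on the opposite strand. Ccl7 was also highest in Apoe_KO 2 and 4, with 1.19 to 4.76 FPKM in WT and 2.43, 9.08, 2.72 and 14.4 FPKM in Apoe_KO 1 to 4 (0.81, SE 0.46, adjusted p = 0.319). Ccl8, expressed by resident tissue macrophages of mice, was at 5.45, 8.52, 3.22, 9.31 and 7.26 FPKM in WT 1 to 5 and at 3.71, 9.91, 8.21 and 29.2 FPKM in Apoe_KO (0.57, SE 0.48, adjusted p = 0.509). Ccl12 was at 1.48 to 4.5 and 2.11 to 7.81 FPKM (0.26, SE 0.31, adjusted p = 0.65), and its sign turned without Apoe_KO 4 (-0.040). Single libraries carried much of these differences: without Apoe_KO 4 the log2 fold change was 0.076 for Ccl8 and 0.41 for Ccl7, and without Apoe_KO 2 it was 0.31 for Ccl2. Without Apoe_KO 1 it was 0.97 for Ccl8 and 1.01 for Ccl2, and without WT 3 it was 0.36 for Ccl8.

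CC ligand genes of chromosome 11 lie in a pair of clusters, and both calls lay in the second. The first spans 270.1 kb (82035571 to 82305690) with the order Ccl2, Ccl7, Ccl11, Ccl12, Ccl8 and Ccl1, of which 5 were tested with a median log2 fold change of 0.56 and 0 calls. The second spans 138.9 kb (83525778 to 83664683) with the order Ccl5, Ccl9, Ccl6, Ccl3 and Ccl4, of which 3 were tested with a median of 0.82 and 2 calls. Within the second cluster Ccl5, Ccl3 and Ccl4 were not called or not tested, and Ccl9 and Ccl6 lie side by side between them. The difference between the clusters was not tested.

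**Figure D3:**
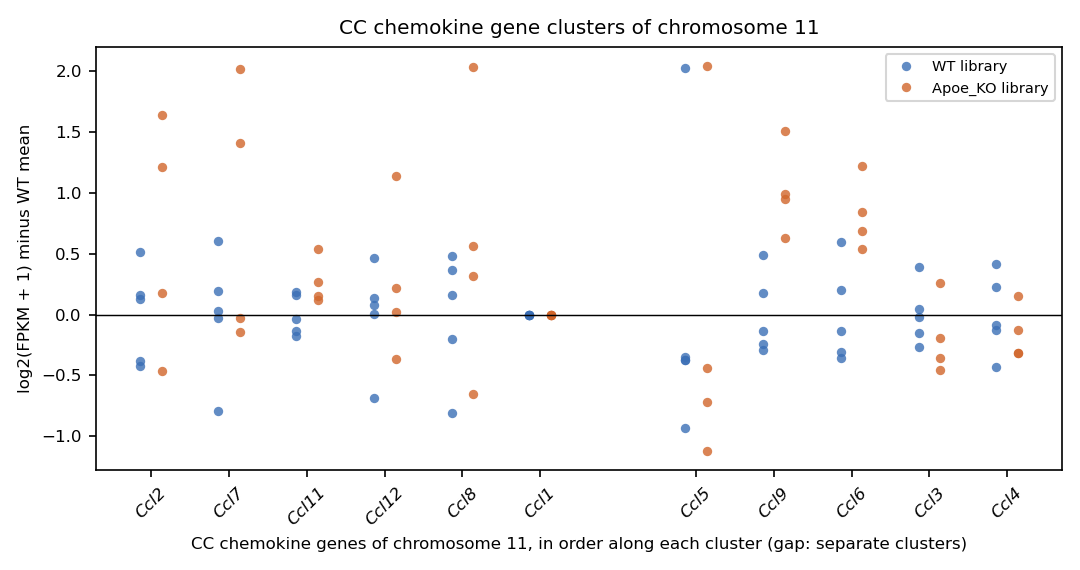
Each library's log2(FPKM + 1) minus the WT mean for the CC chemokine genes of chromosome 11, in their order along each cluster (blue WT, orange Apoe_KO). All Apoe_KO libraries lie above the WT mean for Ccl11, Ccl9 and Ccl6, whereas for Ccl2 and Ccl7 they split between Apoe_KO 2 and 4, which are high, and Apoe_KO 1 and 3.

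Neutrophil-attracting CXC ligands, which act on CXCR2, were low, and Cxcl1 was the member tested. Cxcl1 was at 1.03, 1.98, 2.32, 2.26 and 4.99 FPKM in WT 1 to 5 and at 1.12, 7.56, 3.37 and 6.62 FPKM in Apoe_KO 1 to 4. The groups overlapped, with the highest WT library above 2 of the Apoe_KO libraries (log2 fold change 0.59, SE 0.43, limma adjusted p = 0.435). Cxcl2 was at 1.71 FPKM in WT 5, at 1.64 in Apoe_KO 2 and below 0.5 FPKM in the other 7 libraries. Cxcl5 was at 0 to 0.380 FPKM, Cxcl15 at 0 to 0.200 and Cxcl3 at 0 to 0.0461. Apoe_KO 2 and WT 5 also had the highest sums of handling and heat-inducible genes, 499 and 494 FPKM against 146 to 449 FPKM in the other 7. These sums differed in make-up. Fos was at 26.7 FPKM in Apoe_KO 2 and 141 in WT 5, and the heat shock gene Hspa1b at 101.7 and 10.2 FPKM. Egr1, at 75.1 and 115 FPKM, was highest in these libraries. Of those 9 genes 3, all heat shock genes, were called higher in Apoe_KO, and their groups did not overlap. Hspa1b was at 7.13 to 26.4 FPKM in WT and 55.1 to 125 in Apoe_KO (log2 fold change 2.66). Hspa1a was at 4.26 to 14.7 and 24.7 to 52.3 FPKM (2.19), and Hsph1 at 10.8 to 20.4 and 45.6 to 72.3 (1.89). The others were not called, with log2 fold changes from -1.59 (Fos) to 0.85 (Dnajb1). The part of what the 9 genes reflect in the Cxcl1, Cxcl2, Ccl2, Ccl9 and Ccl6 values was not tested.

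Cxcl1, Cxcl2 and Cxcl3, which lie in 1 cluster on chromosome 5, share a match to the NF-kappaB consensus shortly before their starts. The windows are shown because these 3 genes of the cluster are textbook NF-kappaB targets and were low here; they are RefSeq sequence on GRCm38.p6, plus strand, with the match in capitals:
Cxcl1 (chr5:90891166-90891191): tgtactccGGGAATTTCCctggcccg
Cxcl2 (chr5:90903794-90903819): tgagctcaGGGAATTTCCctggtccc
Cxcl3 (chr5:90786020-90786045): gctgcgggGGGAATTTCCccagcccg
The matches begin 71, 97 and 73 bases before the starts, and in each a match on the other strand begins 1 base further on and overlaps it. On both strands the consensus was found in 3.90% of all 32851 windows, and among 53 windows of members in 9, of 9 genes. Ccl9 holds a match on its opposite strand 35 bases before its start, and Ccl6 held none in this window.

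The CXCR3 ligands Cxcl9 and Cxcl10, which interferon-gamma induces and which attract T cells, had lower means in Apoe_KO without a call. Cxcl9 was at 3.93, 4.58, 4.26, 7.71 and 2.85 FPKM in WT 1 to 5 and at 1.61, 4.29, 2.25 and 3.99 FPKM in Apoe_KO 1 to 4 (log2 fold change -0.50, SE 0.27, limma adjusted p = 0.287). Cxcl10 was at 0.636 to 10.2 FPKM in WT, highest in WT 2, and at 0.50 to 4.38 FPKM in Apoe_KO, highest in Apoe_KO 4 (-0.57, SE 0.55, adjusted p = 0.567). It overlaps Art3 on the opposite strand. Their receptor gene Cxcr3 was at 0.341 to 1.77 and 0.178 to 1.67 FPKM, again highest in WT 2 and Apoe_KO 4.

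Among homeostatic ligands, Cxcl12, the CXCR4 ligand made by stromal and smooth muscle cells, was the steadiest. It was at 32.9, 38.9, 34.9, 36.0 and 35.1 FPKM in WT 1 to 5 and at 27.2, 29.8, 31.3 and 34.0 FPKM in Apoe_KO 1 to 4. Apoe_KO 4 alone reached into the WT range, at a log2 fold change of -0.21 (SE 0.076), with an unadjusted p of 0.0184 and a limma adjusted p of 0.117. Cxcl14, an epithelial and stromal chemokine, moved the other way, with 1.47, 1.38, 2.12, 2.86 and 2.09 FPKM in WT 1 to 5 and 3.59, 2.57, 3.23 and 4.44 FPKM in Apoe_KO 1 to 4. Only WT 4 and Apoe_KO 2 overlapped, and the log2 fold change of 0.58 (SE 0.17) had an adjusted p of 0.063. It was called after median centring (0.0499) and without WT 4 (0.0471) or Apoe_KO 2 (0.0392). In the other settings it was not called, and its adjusted p rose to 0.151 with no filter and 0.197 without WT 2 and Apoe_KO 4. Ccl27a, a skin chemokine, was at 2.2 to 2.97 and 1.85 to 2.95 FPKM (-0.15, SE 0.11, adjusted p = 0.453) and overlaps Il11ra1 on the opposite strand.

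Ccl21a, the CCR7 ligand of lymphatic endothelium and lymph node stroma, split the libraries in another way than genotype or the lymphocyte markers. The copy on the unplaced scaffold JH584294.1 was at 43.0, 48.0 and 41.4 FPKM in WT 4, WT 5 and Apoe_KO 2, and at 3.27, 6.00 and 3.96 FPKM in WT 1, WT 2 and WT 3 and 4.97, 0.924 and 5.42 FPKM in Apoe_KO 1, Apoe_KO 3 and Apoe_KO 4. The B and plasma cell markers summed to 33.9, 24.7 and 32.3 FPKM in the 3 high libraries. Prox1 and Flt4, of 5 listed markers of lymphatic endothelium, were at 1.68, 2.25 and 1.17 FPKM and at 4.81, 5.24 and 3.27 FPKM in the same libraries. In the others they were at 1.21 to 2.08 and 3.51 to 4.54 FPKM. WT 5 had the highest and Apoe_KO 2 the lowest values of both. The rest of the list differed, with Pdpn and Lyve1 lowest in WT 3 (6.777 and 21.02 FPKM) and Reln in Apoe_KO 1 (1.994 FPKM). Of the list, only Lyve1 was called, higher in Apoe_KO (log2 fold change 0.812, limma adjusted p = 0.0196). It was at 21.02 to 31.02 FPKM in WT and 34.03 to 59.8 FPKM in Apoe_KO, with Apoe_KO 2 at 34.03 FPKM. The copy of Ccl21a on chromosome 4 was listed at 0 in all 9 libraries. Near-identical copies Ccl21b on chromosome 4 and scaffold GL456350.1 were at 0 to 0.268 and 0 to 0.543 FPKM. Reads could have been split or dropped among these copies, so the level of Ccl21a is uncertain. The log2 fold change was -0.75 (SE 1.03, limma adjusted p = 0.694), and it ranged from -1.59 without Apoe_KO 2 to -0.10 without Apoe_KO 3 and was -1.98 with library weights.

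Cxcl13, the CXCR5 ligand that draws B cells into follicles, was at 34.3 FPKM in WT 2 and 48.0 FPKM in Apoe_KO 4, at 4.18, 4.02, 8.64 and 9.39 FPKM in WT 1, 3, 4 and 5 and at 9.53, 8.06 and 7.16 FPKM in Apoe_KO 1 to 3 (log2 fold change 0.51, SE 0.68, limma adjusted p = 0.687). Its receptor gene Cxcr5 was at 5.28 FPKM in WT 2 and 6.39 FPKM in Apoe_KO 4, and at 0.0154 to 0.228 FPKM elsewhere. Ccr7, the receptor of naive T cells and migrating dendritic cells, was at 5.50 and 11.8 FPKM in those libraries and at 0.129 to 0.763 elsewhere. Ccr6, of B cells and Th17 cells, was at 3.89 and 4.49 FPKM and at 0 to 0.131 elsewhere. Of the 61 members above 0 in some library, 19 (31.1%) had WT 2 and Apoe_KO 4 as their highest libraries, as had 10.1% of the 30432 genes above 0. T and NK cell markers summed to 66.8 and 58.4 FPKM in these libraries and 3.59 to 14.7 FPKM in the others. Cr2 and Glycam1 are listed among genes of lymph node stroma and high endothelial venules. They were at 7.83 and 8.46 FPKM in WT 2 and 6.72 and 8.45 FPKM in Apoe_KO 4. Elsewhere Cr2 was at 0.0265 to 0.152 FPKM and Glycam1 at 0 to 0.0746 FPKM. In that list Madcam1 was at 1.11 and 1.555 FPKM in WT 2 and Apoe_KO 4 and at 0 to 0.185 elsewhere. The remaining listed genes stood less apart. Chst4 was at 1.62 and 1.41 against 0.14 to 1.21 FPKM, and Enpp2 at 22.3 and 26.9 against 10.4 to 20.8. Bst1 was at 3.56 and 2.74 against 1.64 to 2.83 FPKM, and Tnfrsf11a at 5.09 and 4.46 against 3.60 to 6.17. The source of the lymphocyte and lymph node transcripts in WT 2 and Apoe_KO 4 was not tested.

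**Figure D4:**
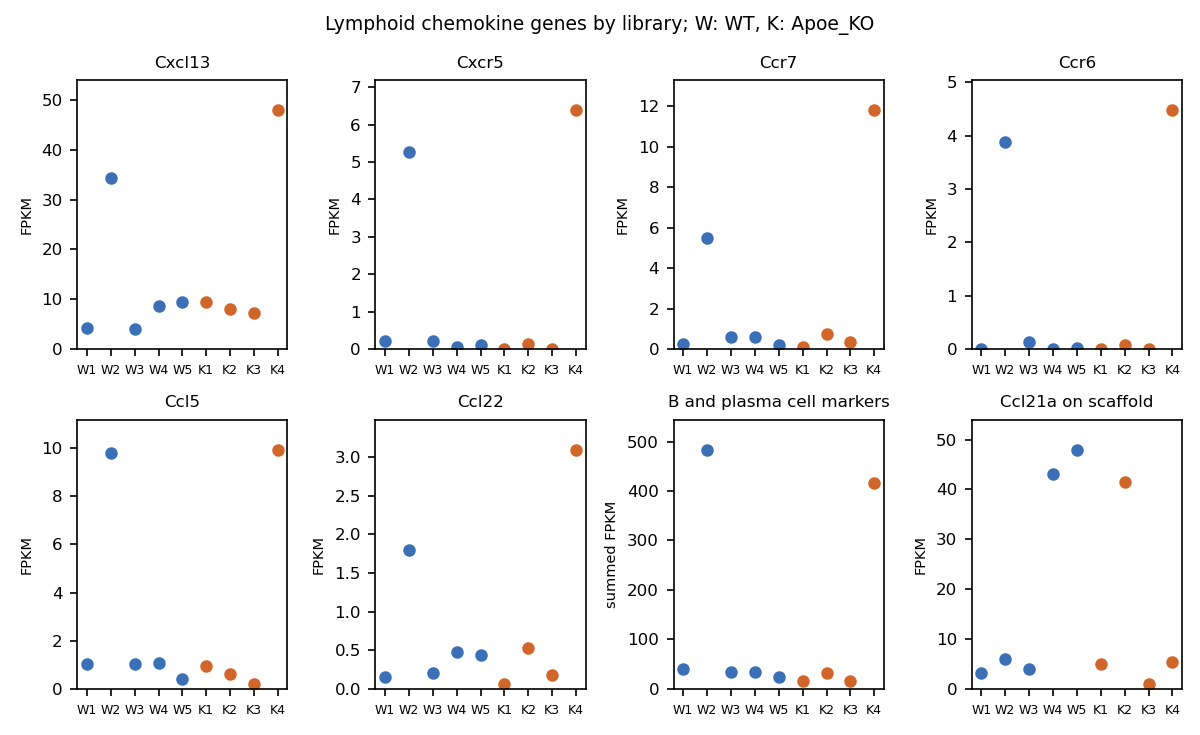
FPKM per library (W, WT; K, Apoe_KO; axes start at 0) of Cxcl13, Cxcr5, Ccr7, Ccr6, Ccl5, Ccl22 and the scaffold copy of Ccl21a, and summed FPKM of 8 B and plasma cell markers. WT 2 and Apoe_KO 4 are the high libraries in all panels but that of Ccl21a, where WT 4, WT 5 and Apoe_KO 2 lie between 41.4 and 48.0 FPKM.

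Of the eotaxins, which act on CCR3 of eosinophils, Ccl11 was among the most abundant chemokine transcripts. Ccl11 was at 25.6, 27.4, 24.9, 31.6 and 32.3 FPKM in WT 1 to 5 and at 30.7, 41.4, 31.5 and 34.2 FPKM in Apoe_KO 1 to 4. The groups overlapped, with a log2 fold change of 0.27 (SE 0.11), an unadjusted p of 0.0329 and a limma adjusted p of 0.161. Ccl24 was at 3.48 to 7.26 and 3.44 to 4.06 FPKM (-0.25, SE 0.16, adjusted p = 0.367). Their receptor gene Ccr3 was at only 0.125 to 0.783 FPKM. Cx3cl1, the membrane-bound chemokine of endothelium, was at 2.03 to 4.34 and 2.40 to 3.95 FPKM (-0.064, SE 0.18, adjusted p = 0.861), and its sign turned with median centring (0.004) and quantile normalization (0.053). Its receptor gene Cx3cr1 was at 0.584 to 1.61 and 0.247 to 1.16 FPKM.

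Among the CC receptors, Ccr2, the receptor of CCL2 on inflammatory monocytes, had the largest difference and just missed the threshold. It was at 3.56, 3.09, 1.79, 3.59 and 3.84 FPKM in WT 1 to 5 and at 1.14, 1.34, 1.19 and 2.45 FPKM in Apoe_KO 1 to 4. Of the Apoe_KO libraries 3 lay below every WT library, and Apoe_KO 4 lay above WT 3. Means of 3.17 ± 0.820 (SD, n = 5) and 1.53 ± 0.621 FPKM (SD, n = 4) gave a log2 fold change of -0.73 (SE 0.19, limma adjusted p = 0.051). It was called lower without Apoe_KO 4 (-0.89, adjusted p = 0.0276) or WT 3 (-0.87, 0.0178), with library weights (-0.88, 0.0114) and with a pseudocount of 0.1 (-1.03, 0.0493). In the other settings it was lower without a call. Its adjusted p rose to 0.129 with no filter, 0.121 with the replicate number as a block and 0.139 without Apoe_KO 3. Of the 5 monocyte markers 3 were tested and none was called, and the list summed to 92.8 to 175 FPKM in WT and 156 to 200 FPKM in Apoe_KO. Most of that sum came from Ace and Nr4a1 in every library, so it says little about the lower markers. Ace was at 58.7 to 85.1 FPKM in WT and 70.5 to 104.5 FPKM in Apoe_KO (log2 fold change 0.27, limma adjusted p = 0.239). Nr4a1 was at 25.1 to 80.2 and 56.3 to 83.6 FPKM (0.51, adjusted p = 0.373). Ly6c2, the marker of inflammatory monocytes, was too low for the test, at 0.628, 3.61, 0.504, 0.401 and 0.529 FPKM in WT 1 to 5 and at 0.131, 0.256, 0 and 2.46 FPKM in Apoe_KO 1 to 4. As for Ccr2, 3 Apoe_KO libraries lay below every WT library and Apoe_KO 4 within the WT range. Plac8 was at 4.37 to 11 FPKM in WT libraries and at 5.70 to 16.8 FPKM in Apoe_KO libraries, and the part of monocytes in the Ccr2 difference was not tested. Ccr2 and Ccl2 means thus lay in opposite directions, as did the Ccr2 mean and those of Ccl7 and Ccl12.

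Ccr1, the receptor of CCL6 and CCL9, was at 1.29, 1.70, 0.843, 1.68 and 1.63 FPKM in WT 1 to 5 and at 1.43, 1.33, 1.59 and 2.54 FPKM in Apoe_KO 1 to 4 (log2 fold change 0.16, SE 0.16, limma adjusted p = 0.58). It lies near Ccr2, Ccr3, Ccr9, Ccr1l1, Cxcr6 and Xcr1 on chromosome 9, and of these genes Ccr1 and Ccr2 were tested. Cxcr6 was at 0.33 to 1.40 and 0.220 to 1.18. Ccr10, a skin and mucosal homing receptor whose gene overlaps Cntnap1 on the opposite strand, was at 0.757 to 1.48 and 0.562 to 1.25 FPKM (-0.24, SE 0.14, adjusted p = 0.328). Cxcr4, the CXCL12 receptor, was at 10.1, 16.5, 3.93, 7.40 and 5.59 FPKM in WT 1 to 5 and 5.84, 5.93, 5.90 and 22.1 in Apoe_KO 1 to 4 (0.082, SE 0.45, adjusted p = 0.93). WT 2 and Apoe_KO 4 were its highest libraries, and without both the log2 fold change was -0.11.

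All 4 atypical receptors were tested, and none was called. Ackr3, the scavenger of CXCL12, was at 23.4, 29.2, 29.1, 30.7 and 35.5 FPKM in WT 1 to 5 and at 20.3, 25.7, 29.8 and 29.7 FPKM in Apoe_KO 1 to 4, with overlapping groups (log2 fold change -0.16, SE 0.14, limma adjusted p = 0.498), which made it the most abundant receptor. The ratio of Cxcl12 to Ackr3 was 0.988 to 1.41 in WT and 1.05 to 1.34 in Apoe_KO, whereas that of Cxcl12 to Cxcr4 was 2.36 to 8.87 and 1.54 to 5.30. Ackr1, the Duffy antigen receptor of venular endothelium and red cells, was at 9.11, 5.73, 6.12, 5.58 and 6.96 FPKM in WT 1 to 5 and 4.41, 5.52, 4.95 and 4.81 in Apoe_KO 1 to 4. Its groups did not overlap, by a margin of less than 0.1 FPKM between WT 4 and Apoe_KO 2, and its log2 fold change of -0.36 (SE 0.13) had an unadjusted p of 0.0167 and an adjusted p of 0.111. Of 6 endothelial markers, Kdr, the VEGF receptor gene, fell (log2 fold change -0.58, limma adjusted p = 0.0184) and 5 were not called, among them Vwf (-0.54, 0.228) and Cdh5 (-0.40, 0.0727). These markers had a median log2 fold change of -0.38 and summed to 188 to 328 FPKM in WT and 172 to 295 FPKM in Apoe_KO. Erythroid markers summed to 136 to 1006 FPKM in WT, highest in WT 1, and 36.6 to 366 FPKM in Apoe_KO. The part of endothelial and red cells in the Ackr1 values was not tested. Ackr1 also overlaps Cadm3 on its own strand.

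Ackr4, a scavenger of CCL19 and CCL21, was at 1.15, 2.47, 2.11, 2.01 and 2.18 FPKM in WT 1 to 5 and 1.10, 0.831, 1.79 and 1.19 in Apoe_KO 1 to 4. WT 1 lay among the Apoe_KO libraries and the other 4 WT libraries above them (log2 fold change -0.42, SE 0.16, unadjusted p of 0.0278, limma adjusted p = 0.147). The gene overlaps Acad11 on the opposite strand. Ackr2, a scavenger of inflammatory CC chemokines, was at 2.02 to 2.78 and 2.52 to 3.77 FPKM (0.24, SE 0.11, adjusted p = 0.234).

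**Figure D5:**
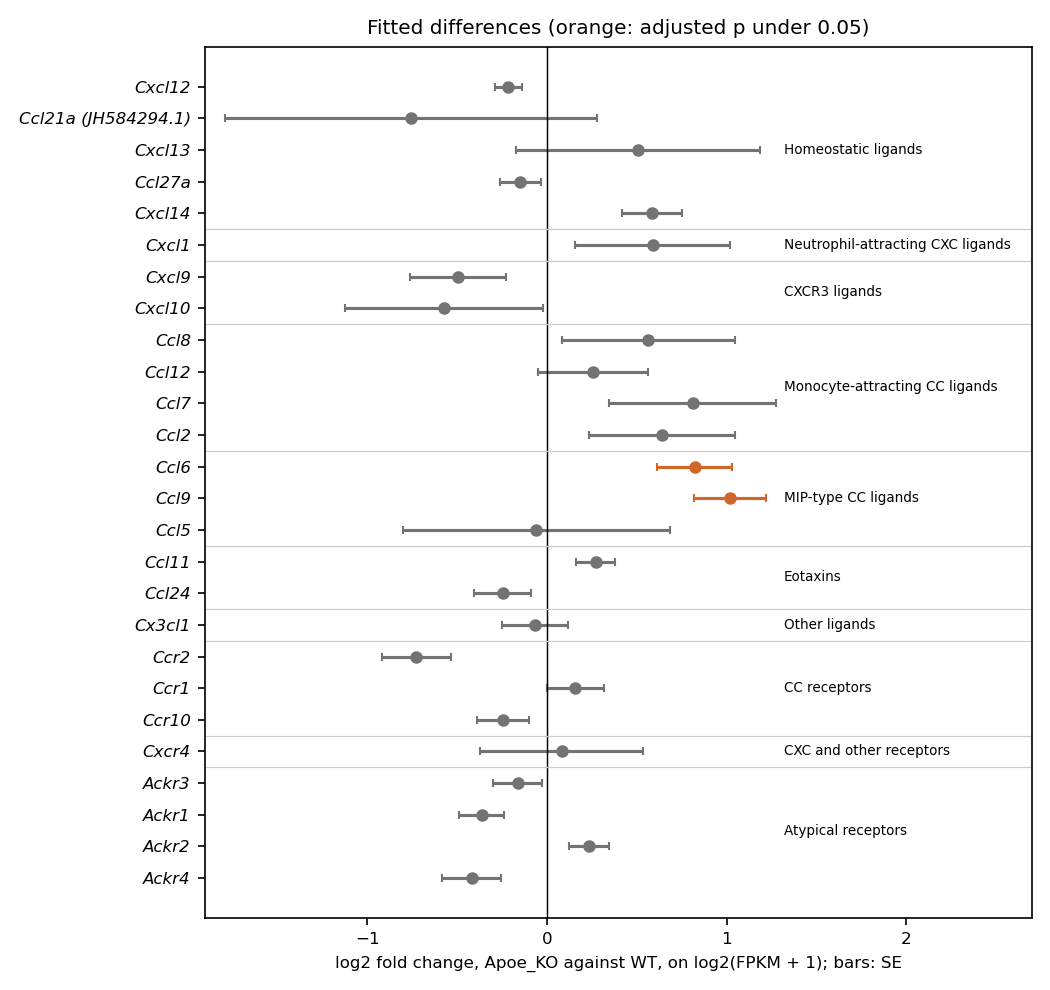
Log2 fold change of Apoe_KO against WT on the log2(FPKM + 1) scale with its SE for the 26 tested genes, by role. The called genes Ccl6 (0.82) and Ccl9 (1.02) are orange, and Ccr2 (-0.73) lies farthest below 0 among the receptors.

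The 37 members below the filter were too low for the main comparison, and with no filter none of the 35 of them above 0 in some library had an adjusted p below 0.533. Without a filter 1.46% of all 30432 genes were called, among them Ccl9. Ccl22, a dendritic cell product that acts on CCR4, reached 1.80 FPKM in WT 2 and 3.09 FPKM in Apoe_KO 4 and stood at 0.0661 to 0.533 elsewhere, and Cxcr2, of neutrophils, at 1.08 and 2.23 FPKM and 0.0174 to 0.157 elsewhere. Ccl17 was at 0 to 1.38, Ccr8 at 0 to 0.881, Xcr1 at 0.0362 to 0.555, Ccr9 at 0.0197 to 0.547, Xcl1 at 0 to 0.562, Ccr4 at 0 to 0.285 and Cxcr1 at 0 to 0.142 FPKM. Epithelial and mucosal ligands were likewise low, with Ccl25 at 0.207 to 0.743, Ccl28 at 0.0106 to 0.345, Cxcl17 at 0 to 0.139 and Ccl20 at 0 to 0.115 FPKM. Ccl26 was at 0 to 0.381 FPKM, and Ccr1l1 at 0 to 0.184. Ccl19, the other CCR7 ligand, was at 0 to 0.440 FPKM from its chromosome 4 copy and at 0 to 0.333 from the scaffold copy, Ccl27b was at 0 to 0.369 and the scaffold gene Ccl27 at 0 to 0.426. Ccl1 and the chromosome 4 copy of Ccl21a were listed at 0 in all libraries.

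Of 59 genes that act below chemokine receptors or are related to chemokines, 55 were tested, and 3 were called higher and 0 lower (5.45%, against 7.35% of all genes). The unadjusted p was under 0.05 for 15 of the 55 (27.3%, against 24.6% of all genes). With limma's voom on recovered reads, 3 were called higher and 2 lower, and 470 and 547 of all genes. Those called were Rock1 and Rock2, kinases through which RhoA contracts the cell rear, and Bcar1, an adaptor of focal adhesions. Rock1 had a mean of 47.3 ± 4.84 FPKM in the WT group and of 81.3 ± 14.2 FPKM in the Apoe_KO group (SD, n = 5 and 4, log2 fold change 0.76, limma adjusted p = 0.0067), Rock2 at 21.3 ± 0.520 and 32.7 ± 5.37 (0.58, 0.0109) and Bcar1 at 7.58 ± 0.515 and 10.4 ± 0.992 (0.40, 0.0154). These genes have roles in all cells of the vessel wall. The median log2 fold change of the 55 was 0.023.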

How the data were processed

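RNA of aorta was measured in 5 WT and 4 Apoe_KO libraries. Per the labels' protocols ribosomal RNA was depleted, whereas polyA RNA is given as the molecule. Build GRCm38 and limma are named per the submitters' processing notes, and for the aligner and counter no name is given in the sources used; nor is strandedness. The values the authors deposited carry no unit and were taken as FPKM, because value times exon length (GENCODE mouse release 21, which also gave symbols and positions) was a whole number of reads, within 0.1, for 97.6% to 97.9% of values worth up to 50 reads (20% by chance). The design provided for either unit, and its test for FPKM applied.

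The filter kept genes that reached 1 FPKM in 4 or more libraries; the test was on log2(FPKM + 1), which understates changes of low genes, with limma 3.58.1 in R 4.3.3 (trend and robust), genotype as the only term, and Benjamini-Hochberg adjustment over all 13383. The steps were tested on simulated data. The members and lists were chosen with earlier results of these data known. The rule for values was as follows: values in every library for called members, those with groups that do not overlap, the 8 of highest mean and the partners of called members, ranges for most others; full values of Ackr4, Ccl2, Ccr2, Cxcl1, Cxcl9, Cxcl14, Cxcr4 and, in part, Ccl7 were added after the values were seen, as were the motifs. The values of 1 further ligand, outside the 63, and of 1 receptor are not reported here. Promoters came from RefSeq (46 of 60 member symbols matched) and were aligned locally (match 2, mismatch -2, gap -6 to open and -1 to extend). Alternatives were the replicate block, single libraries left out, WT 2 and Apoe_KO 4 left out together, other filters, pseudocount and scalings, library weights, a minimum fold change and voom on recovered reads. Every column mapped to a labelled sample, and columns were pairwise different.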

Additional observations from a re-analysis of the deposited data

Results flagged for a closer look

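In each genotype, the highest or lowest library was compared with the nearest of the others for 36 members that reached 1 FPKM in some library, 72 groups of libraries in all. By Dixon's 95% criterion, 21 single libraries stood far from the rest, 8 of them WT 2 and 10 Apoe_KO 4. Chance alone meets this criterion in about 1 of 20 groups, but that rate is no yardstick here. Some members, such as Ccl17 and Cxcr2, reached 1 FPKM only in libraries that were then flagged, and members that rise together are not independent. WT 2 was far above the other WT libraries for Cxcl13 (34.3 FPKM), Ccl5 (9.80), Ccr7 (5.50), Cxcr5 (5.28), Ccr6 (3.89), Ccl22 (1.80), Cx3cr1 (1.61) and Cxcr2 (1.08). Apoe_KO 4 was far above the other Apoe_KO libraries for Cxcl13 (48.0 FPKM), Cxcr4 (22.1), Ccr7 (11.8), Ccl5 (9.93), Cxcr5 (6.39), Ccr6 (4.49), Ccl22 (3.09), Ccr2 (2.45), Cxcr2 (2.23) and Ccl17 (1.38). Outside these libraries, the scaffold copy of Ccl21a stood out in Apoe_KO 2 (41.4 FPKM), and Ccl24 (7.26 FPKM) and Cxcl2 (1.71 FPKM) in WT 5.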

How the results depend on the processing

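Of the 2 members called higher, 1 remained called, Ccl9, with a filter of 0.1 FPKM, no filter, quantile normalization, library weights, voom with 5 reads in 4 libraries or a minimum log2 fold change of 1, and 0 without WT 2 and Apoe_KO 4 together; single libraries left out gave 0 to 2. With library weights or a pseudocount of 0.1, 1 member (Ccr2) was called lower, and 0 to 1 with single libraries left out. Pathway genes called higher numbered 5 with library weights, 1 without WT 2 and Apoe_KO 4 and 0 with the minimum fold change (3 to 4 with single libraries left out), and those called lower 5, 2 without WT 2 and Apoe_KO 4, 2 with voom and 1 with voom on 5 reads (0 to 1). Over all genes, those called higher numbered 702 with library weights, 247 with no filter, 203 without WT 2 and Apoe_KO 4 and 54 with the minimum fold change (205 to 576 with single libraries left out). Those called lower numbered 1055, 198, 174 and 23 in that order, 220 with a filter of 10 FPKM, 269 with median centring and 240 with quantile normalization (178 to 683). Single libraries moved these counts by over 1.5 times: without Apoe_KO 3, WT 4 and Apoe_KO 1, 205, 260 and 287 genes were called higher, and without Apoe_KO 3, WT 4, WT 2, WT 1, WT 5 and Apoe_KO 4, 178, 226, 283, 290, 320 and 345 lower. The cause of these shifts was not tested. Of 524 values of single members under alternatives, 480 kept direction and side, 17 lost and 7 gained a call, and 20 reversed, all of uncalled genes. The reversals were Ccl12 (-0.005 without WT 2 and Apoe_KO 4; -0.040 to 0.46 with single libraries left out), Cx3cl1 (0.004 with median centring, 0.053 with quantile normalization; -0.19 to 0.023), Ccl5 (0.009 and 0.045; -0.76 to 0.45), Cxcl13 (-0.096 to 0.97) and Cxcr4 (-0.039 with library weights, -0.11 without WT 2 and Apoe_KO 4; -0.36 to 0.33).

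With the replicate number as a block, the 2 members stayed called (Ccl9 1.14, Ccl6 0.97), Cxcr4 reversed (-0.023), 0 pathway genes were called higher, and 121 genes were called higher and 62 lower. Number 5 exists only in WT, so the block took up WT 5. The log2 fold changes of Ccl9 and Ccl6 were therefore those of the fit without WT 5. The deviations of same-numbered libraries correlated at 0.26, -0.27, -0.13 and -0.22 for numbers 1 to 4, so the numbers were not taken to pair the samples. Precision is limited by depth for members of low level: Ccl3 and Ccl4 rest on 41 and 34 reads over all libraries.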
